A study of Mus musculus with 6 samples.

Results

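The genes described here encode the calcium-dependent phosphatase calcineurin, the proteins that restrain it and the NFAT transcription factors it activates. 10 genes were listed by name: the catalytic subunit genes Ppp3ca, Ppp3cb and Ppp3cc, the regulatory subunit gene Ppp3r1, the regulator genes Rcan1, Rcan2, Rcan3 and Cabin1, and the factor genes Nfatc3 and Nfatc4. All probe sets that the platform annotation gives to one of these genes alone were taken, which found 21 probe sets of 9 genes, of 22626 probe sets and 12393 genes measured. Cabin1 was not analysed here, and 1 probe set shared by Ppp3r1 and Wdr92 was left aside by the rule. A probe set is a group of short probes read as a single value on the log2 scale. Each member gene had at least 2 probe sets.

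Expression was measured on 6 Affymetrix mouse arrays, 1 for each RNA sample of a cultured cell line called PPP3R1. The groups were 3 samples starved for 6 h and 3 control samples in normal medium. The line carries the name of calcineurin B, but the labels name no allele, no way in which the line was made and no starvation medium, and they do not say whether it is a single clone. By the titles and the series design the control was this same line. The growth and treatment text instead names wild-type MEFs (mouse embryonic fibroblasts) in normal medium. Groups were taken from the titles, and the conflict bears on each difference given. Nothing in the labels says that the biological replicates were separate cultures, so the p-values cover the spread between these samples only, which may be technical. The small number of arrays limits the precision.

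Calcineurin is a dimer of a catalytic A subunit, encoded by Ppp3ca, Ppp3cb or Ppp3cc, and the calcium-binding B subunit encoded by Ppp3r1. When cytosolic calcium rises, calmodulin binds the A subunit and frees its active site, and the phosphatase removes phosphates from NFAT proteins, which then enter the nucleus. GSK3, casein kinase 1 and DYRK kinases put the phosphates back, RCAN proteins bind and regulate the phosphatase, and in starved cells calcium released from lysosomes is known to activate calcineurin towards TFEB, a regulator of lysosomal and autophagy genes.

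Starvation went with lower values of Ppp3ca in each of its 3 probe sets, and with higher values in 2 of the 4 probe sets of Nfatc4 and in 1 of the 2 of Nfatc3. The 2 probe sets of Ppp3cb were called in opposite directions, and Ppp3cc and Rcan3 each had 1 probe set called higher and 1 that did not pass. Neither probe set passed for Ppp3r1, Rcan1 or Rcan2. In all 10 of 21 member probe sets were called by limma at a Benjamini-Hochberg adjusted p under 0.05, 6 higher and 4 lower. Of all probe sets tested, 39.5% were called, 20.3% higher and 19.2% lower, so the share of members called, 47.6%, lay near the background. The median change of the members was 0.09 and that of all probe sets -0.01, and their median absolute changes were 0.18 and 0.16. The control and starved arrays did not overlap in 13 member probe sets (61.9%), against 50.4% of all probe sets. Each change is given on the log2 scale as the starved mean minus the control mean, ± the standard error from limma with n = 3 per group. The members' calls kept their direction with a second quantile normalization or with each array centred on its median, which left 6 higher and 4 lower both times. In bulk RNA fewer cells that make a transcript and less of it per cell cannot be told apart.

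Pearson's r over all probe sets was 0.998 between arrays of a group and 0.986 to 0.988 between a control and a starved array. Fibroblast marker genes were present. Their mean log2 value over 12 genes was 11.32 to 11.39 in control arrays and 11.30 to 11.32 in starved arrays. The limit used here for dim probe sets was a level of 5. Thy1 lay under it in both groups, and Fap in the starved arrays only (mean 6.6 in control and 4.3 in starved arrays). Of the 12, 4 were called higher and 2 lower, with changes from -2.26 in Fap (limma adjusted p = 1.13e-05) to 0.57 in Col1a1 (0.000175). Leukocyte (7 genes), epithelial (6) and endothelial (5) markers had means of 3.76 to 4.58 over all arrays, with 5, 5 and 5 of them under 5 in both groups. Their defining genes Ptprc, Cd3e, Epcam and Pecam1 lay under 5 in both groups, and 1 gene of each list was called higher by limma. These were Cd68 of macrophages (6.25 in control and 6.68 in starved arrays, adjusted p = 0.00076), Cdh1 (3.54 and 4.04, 0.00186) and Pecam1 (3.40 and 3.63, 0.0393), while Csf1r, at 6.18 and 6.17, was not called. The part of these genes in the members' changes was not tested. Muscle and neural markers had means of 4.03 to 5.25, with 2 of 5 and 4 of 6 under 5. Of these the neural gene Tubb3 alone was called, higher in starved arrays (6.26 in control and 6.72 in starved arrays, limma adjusted p = 0.00548). Control probe sets at both ends of Gapdh differed (3 prime minus 5 prime) by -0.11 to 0.00 in control and -0.15 to -0.11 in starved arrays (exact permutation test, two-sided p = 0.1, the smallest that 3 against 3 allows), and those of Actb by 0.03 to 0.08 in both groups (p = 0.7).

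Among the catalytic subunits, 6 of 7 probe sets passed, 4 lower and 2 higher, where 39.5% of all probe sets were called. Only 1 of the 7 was dim in both groups, and of all probe sets not dim in both groups 53.8% were called. The 7 probe sets belong to 3 genes, and those of 1 gene are not independent. Ppp3ca, the alpha catalytic subunit gene, was at 10.62, 10.63 and 10.61 in control replicates 1 to 3 and at 10.43, 10.39 and 10.44 in starved replicates 1 to 3 in probe set 1426401_at. The control arrays were nearly equal, and each starved array was lower. The difference was -0.20 ± 0.05, a 1.15-fold lower level (limma adjusted p = 0.0159).

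Ppp3ca had 2 more probe sets. In 1438478_a_at, whose suffix marks probes that match several transcripts of a gene, the values were 10.45, 10.39 and 10.50 in control and 10.21, 10.24 and 10.29 in starved arrays, a difference of -0.20 ± 0.06 (limma adjusted p = 0.0255). In 1452056_s_at, whose suffix marks probes that may match several genes, they were 8.89, 8.92 and 8.99 against 8.72, 8.59 and 8.70, a difference of -0.26 ± 0.06 (limma adjusted p = 0.00972). The groups did not overlap in any of the 3 probe sets, which read the same RNA samples and are not independent replicates. Leaving out single arrays ended some calls. That of 1426401_at was lost without starved replicate 2 (adjusted p = 0.0577; over the alternatives tried, the adjusted p ranged from 0.000631 to 0.0577). That of 1438478_a_at was lost without control replicate 1 (0.0663), control replicate 3 (0.0701), starved replicate 1 (0.0777) or starved replicate 2 (0.0714; range 0.00138 to 0.0777), and that of 1452056_s_at under none of them (0.000694 to 0.0376). The mean of the 3 probe sets was lower by -0.22 ± 0.05 (limma adjusted p = 0.00674).

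Ppp3cb encodes the beta catalytic subunit, and its probe sets disagreed. Probe set 1433835_at was at 9.20, 9.30 and 9.21 in control and 9.11, 8.96 and 9.00 in starved arrays, a fall of 0.21 (SE 0.06, limma adjusted p = 0.0292). Probe set 1427468_at was at 8.24, 8.30 and 8.45 in control and 8.89, 8.90 and 9.01 in starved arrays, a rise of 0.61 ± 0.07 or 1.52-fold (limma adjusted p = 0.000356). In both the groups were apart, the first with starved arrays low and the second with starved arrays high.

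Within each array the first Ppp3cb probe set minus the second was 0.96, 1.00 and 0.76 in control and 0.22, 0.05 and 0.00 in starved arrays. This difference changed by -0.82, from 0.91 ± 0.13 (SD, n = 3) to 0.09 ± 0.12 (SD, n = 3). It is a description with no test, since the gene was picked because its probe sets parted in opposite directions. Ppp3cb has no settled direction: the mean of both was higher by 0.20 ± 0.05 (limma adjusted p = 0.0176). The rise of 1427468_at held without any array (alternatives from 1.80e-07 to 0.00766). The fall of 1433835_at was lost without control replicate 1 (adjusted p = 0.0507), control replicate 2 (0.0952), control replicate 3 (0.0508), starved replicate 2 (0.0983) or starved replicate 3 (0.0855), and without moderation of the spread (0.0511; range 0.00373 to 0.0983).

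Ppp3cc, the gamma catalytic subunit gene best known from testis, lay close to the dim limit. Probe set 1430025_at was at 4.62, 4.85 and 5.45 in control and 5.60, 5.71 and 5.60 in starved arrays. The starved arrays were alike and the control arrays were spread, with control replicate 3 near the starved ones. The rise was 0.66 ± 0.19, 1.58-fold, the largest change of the members (limma adjusted p = 0.0234). Without control replicate 3 it was 0.90 (adjusted p = 0.000433), and without control replicate 1 it was 0.48 and the call was lost (0.0624). It was also lost without control replicate 2 (0.0758) or starved replicate 1 (0.0577), 2 (0.0669) or 3 (0.0507), and without moderation (0.129; alternatives from 0.000433 to 0.129). The other probe set, 1420743_a_at, was at 4.96, 4.56 and 4.84 against 4.95, 4.88 and 5.03, with groups that overlapped, and the difference of 0.17 ± 0.10 did not pass (limma adjusted p = 0.260).

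Ppp3r1, which encodes calcineurin B and gives the line its name, was at 9.97, 10.02 and 9.99 in control and 10.09, 10.07 and 10.08 in starved arrays in probe set 1433591_at. Each starved array lay just above each control array, but the difference of 0.09 ± 0.05 did not pass (limma adjusted p = 0.215, 95% interval -0.03 to 0.21). Without moderation of the spread it passed (adjusted p = 0.0208, alternatives from 0.0208 to 0.384). Probe set 1421786_at was at 3.71, 3.93 and 3.79 against 3.49, 3.87 and 3.89, all under the dim limit. The labels name no change made to the gene in this line, so these levels were not used to check which cells each group holds.

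The RCAN genes encode small proteins that bind calcineurin, and Rcan1 is itself a target of NFAT, read in many studies as a report of calcineurin activity. Rcan1 is known to start at a promoter at its beginning and at another inside the gene, and the internal one responds to calcineurin and NFAT. The 250 bases before both starts are shown because they carry motifs of NFAT and of its partner AP-1, and of the TFEB family. They are from RefSeq in build GRCm38.p6, minus strand, written 5′ to 3′. The first start has chr16:92466170-92466419 before it and the internal start chr16:92400079-92400328. Capitals mark the NFAT core GGAAA, which reads as its reverse complement where it lies on the other strand. They also mark the AP-1 motif TGACTCA, searched on both strands. In the first window they mark the E-box CACGTG, which is the core of the element that TFEB binds.
Rcan1 first start: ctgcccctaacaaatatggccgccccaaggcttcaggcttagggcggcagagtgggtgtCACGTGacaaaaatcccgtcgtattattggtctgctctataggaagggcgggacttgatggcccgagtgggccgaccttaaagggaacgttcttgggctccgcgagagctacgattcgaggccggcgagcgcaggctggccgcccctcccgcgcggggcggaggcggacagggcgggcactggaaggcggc
Rcan1 internal start: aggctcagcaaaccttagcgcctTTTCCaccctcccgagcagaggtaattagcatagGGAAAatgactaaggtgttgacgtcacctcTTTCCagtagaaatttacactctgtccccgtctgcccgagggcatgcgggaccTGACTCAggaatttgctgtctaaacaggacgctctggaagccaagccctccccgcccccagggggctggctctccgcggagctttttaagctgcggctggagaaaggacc

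The window of the internal start held 3 matches to GGAAA, which begin 227, 193 and 163 bases before the start, and 1 match to TGACTCA, which begins 110 bases before it. The window of the first start held none of these and 1 match to CACGTG, which spans bases 191 to 186 before the start. No 2 of these matches overlapped. Of all 32851 promoter windows of this length, 55.6% held GGAAA on either strand, 4.46% TGACTCA and 6.02% CACGTG, the last of which reads the same on both strands. Among the 12 windows of the 8 listed genes in the table, 6 held GGAAA, among them Ppp3cb and Nfatc4 with 3 matches each, 2 held TGACTCA and 2 held CACGTG. These matches describe the letters only, and no binding was measured.

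Rcan1 was at 7.63, 7.60 and 7.71 in control and 7.72, 7.84 and 7.75 in starved arrays in probe set 1416600_a_at. The groups lay next to each other without overlap, and the difference of 0.12 ± 0.06 did not pass (limma adjusted p = 0.154, 95% interval -0.02 to 0.26). Probe set 1416601_a_at was at 6.00, 6.38 and 6.30 against 6.42, 6.27 and 6.44, where control replicate 1 was low and the groups overlapped. Its difference was 0.15 ± 0.10 (limma adjusted p = 0.309, 95% interval -0.09 to 0.39). Neither passed under any alternative (ranges 0.0889 to 0.366 and 0.149 to 0.770), and the intervals leave room for a rise of up to 0.26 or 0.39. Which of the 2 starts each probe set reads was not determined here.

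Rcan2, whose product is the RCAN protein known from thyroid hormone response, did not pass in either probe set. Probe set 1421425_a_at was at 6.33, 6.12 and 5.95 in control and 5.89, 5.93 and 6.24 in starved arrays, a difference of -0.11 ± 0.12 (limma adjusted p = 0.518, 95% interval -0.40 to 0.17). Both groups spread over nearly the same range. Probe set 1450243_a_at lay between 3.44 and 3.79 on all arrays, under the dim limit.

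Rcan3 gave a split picture. Probe set 1434027_at was at 7.66, 7.66 and 7.59 in control and 7.59, 7.57 and 7.57 in starved arrays, and the groups differed by -0.06 ± 0.05 without passing (limma adjusted p = 0.437). Probe set 1450450_at was at 5.43, 5.66 and 5.55 in control and 5.90, 6.07 and 6.18 in starved arrays, so that each starved array was above each control array. It rose by 0.51 ± 0.09, 1.42-fold (limma adjusted p = 0.00260), and kept its call under each alternative that tested it (adjusted p from 0.000494 to 0.0285). The mean of both probe sets was higher by 0.22 ± 0.06 (limma adjusted p = 0.0142). Whether the 2 probe sets of Rcan3 differ in their change was not tested.

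**Figure D1:**
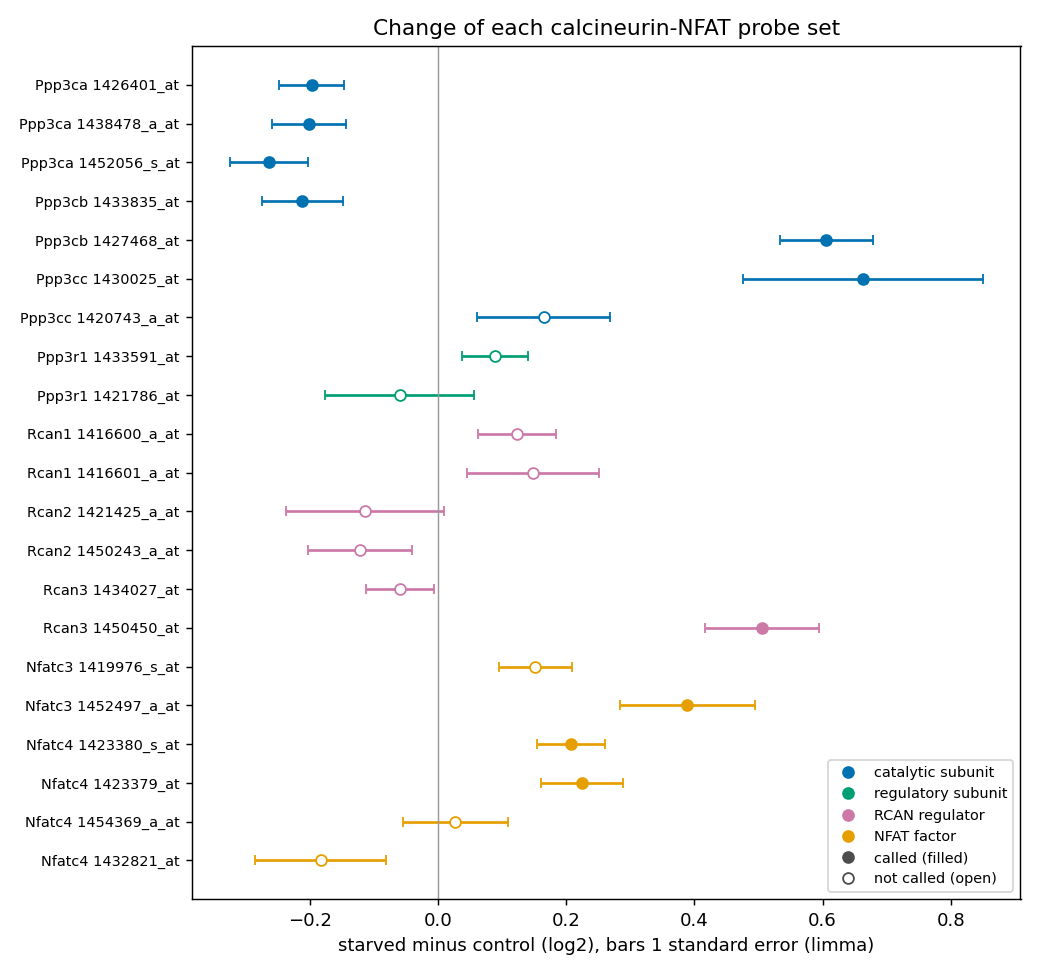
Change of each of the 21 probe sets, on the log2 scale (starved mean less control mean), with bars of 1 standard error from limma (n = 3 per group), coloured by role and filled where called at an adjusted p under 0.05. The 3 Ppp3ca probe sets lie between -0.26 and -0.20, and the largest rises are those of Ppp3cc (0.66), Ppp3cb (0.61) and Rcan3 (0.51), each in 1 of 2 probe sets.

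The NFAT factors bind DNA with partner proteins such as AP-1 once calcineurin has dephosphorylated them. Of their 6 probe sets, 3 were higher and 0 lower, and 3 did not pass (4 had an unadjusted limma p under 0.05), a share near the 39.5% of all probe sets called. Nfatc3, in probe set 1452497_a_at, was at 6.53, 6.63 and 6.52 in control and 6.72, 7.00 and 7.14 in starved arrays. The control arrays were close together and the starved arrays were higher and uneven. The rise was 0.39 ± 0.11, 1.31-fold (limma adjusted p = 0.0195).

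In the other Nfatc3 probe set, 1419976_s_at, the values were 8.52, 8.48 and 8.50 against 8.62, 8.72 and 8.60. Its suffix marks probes that may match several genes. The groups did not overlap, but the difference of 0.15 ± 0.06 did not pass (limma adjusted p = 0.0673). It passed without dim probe sets (adjusted p = 0.0321), with an intensity trend (0.0345) and without moderation (0.0480; alternatives from 0.0321 to 0.201). The call of 1452497_a_at was lost without control replicate 1 (0.0608), control replicate 3 (0.0580), starved replicate 2 (0.0607) or starved replicate 3 (0.0551) and without moderation (0.0959; range 0.00261 to 0.0959). The mean of both probe sets was higher by 0.27 ± 0.07 (limma adjusted p = 0.0108).

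Nfatc4 was at 9.53, 9.44 and 9.48 in control and 9.69, 9.69 and 9.70 in starved arrays in probe set 1423380_s_at, a rise of 0.21 ± 0.05 or 1.16-fold (limma adjusted p = 0.0155). Probe set 1423379_at was at 6.89, 6.75 and 6.75 against 6.95, 7.06 and 7.04, a rise of 0.22 ± 0.06 (limma adjusted p = 0.0248). In both, each starved array was above each control array. The first call was lost without control replicate 2 (adjusted p = 0.0548, alternatives from 0.00132 to 0.0548). The second was lost without control replicate 2 (0.0804), control replicate 3 (0.0694), starved replicate 2 (0.0799) or starved replicate 3 (0.0773; range 0.0114 to 0.0804).

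The other two Nfatc4 probe sets did not rise with these. Probe set 1454369_a_at was at 6.34, 6.27 and 6.49 in control and 6.26, 6.46 and 6.46 in starved arrays, a difference of 0.03 ± 0.08 (limma adjusted p = 0.838). Probe set 1432821_at was at 5.50, 5.55 and 5.55 against 5.16, 5.58 and 5.31, a difference of -0.18 ± 0.10 (limma adjusted p = 0.205), with starved replicate 2 level with the control arrays. Without that array it was lower by -0.30 and passed (adjusted p = 0.0185, alternatives from 0.0185 to 0.515). The mean of all 4 probe sets differed by 0.07 ± 0.06 (limma adjusted p = 0.411), so the rise of Nfatc4 rests on 2 of its probe sets. The suffix of 1 of these 2, 1423380_s_at, marks probes that may match several genes.

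**Figure D2:**
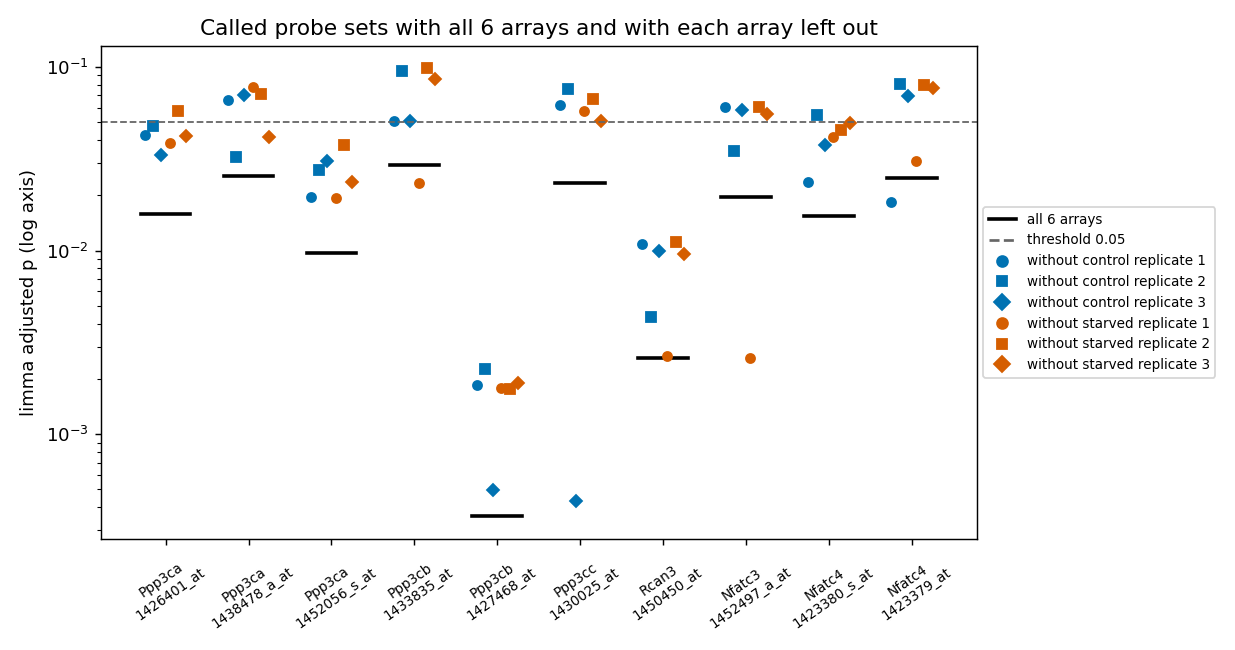
Adjusted p from limma, on a log axis, of the 10 called probe sets with all 6 arrays (black bars) and with each array left out in turn (blue for control, orange for starved), with the threshold of 0.05 dashed. Probe sets 1452056_s_at of Ppp3ca, 1427468_at of Ppp3cb and 1450450_at of Rcan3 stay under the threshold whichever array is left out.

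With each array left out in turn, 6, 6 and 6 member probe sets were called without control replicates 1, 2 and 3, and 8, 5 and 6 without starved replicates 1, 2 and 3. Of all probe sets 34.0% to 37.1% were called in those fits. At an adjusted p under 0.01, 3 of 21 member probe sets were called, in Ppp3ca, Ppp3cb and Rcan3. That is a lower share than the 27.6% of all probe sets called at this threshold. By the brightest probe set of each gene 2 of 9 members were higher and 2 lower, while 40.8% of all genes were called, 20.8% higher and 20.1% lower.

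Likeness was measured as the root mean square distance between values centred on each gene's own mean over the 6 arrays, among 12384 other genes, for the 2 members with the largest change in their brightest probe set. Nearest to Ppp3cc were Akap9 (distance 0.07 on the log2 scale), Ccdc82 (0.10) and Slc7a3 (0.13), and only 1 gene lay within 0.1. Nearest to Ppp3cb in probe set 1433835_at were Ndufb2, Eif4e and Pcolce, at 0.02 each, and 1848 genes lay within 0.1. The distance is in log2 units, so a member with a small change, as this Ppp3cb probe set, lies within 0.1 of many genes that change little, and the counts of both members are not comparable.

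Further genes of the pathway were taken from lists and are given by each gene's brightest probe set. By this measure 40.8% of all genes were called, 20.8% higher and 20.1% lower, and the count of each list is to be read beside that. In the list of calmodulin and calcium supply, 3 of 9 measured genes rose and 2 fell (median change 0.09, against -0.01 over all genes). Atp2a2, the pump that fills the endoplasmic reticulum with calcium, fell by 0.91 (SE 0.06), and Mcoln1, the lysosomal calcium channel gene, fell by 0.29 (SE 0.06). The channel gene Trpc1 rose by 0.65 ± 0.10, while its other probe set was not called and the mean of both rose by 0.37 (limma adjusted p = 0.00463). The inositol trisphosphate receptor gene Itpr2 rose by 0.46 ± 0.12, a call lost without starved replicate 1 (limma adjusted p = 0.0531), without moderation (0.0902) and with its probe sets averaged (0.336; alternatives from 0.00132 to 0.336). Stim1, the calcium sensor gene of the endoplasmic reticulum, differed by 0.09 ± 0.09 in its brightest probe set without passing, and passed with its probe sets averaged (0.24, limma adjusted p = 0.00746, range 0.00746 to 0.864).

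Among NFAT kinases and the nuclear exporter, 5 of 12 genes rose and 3 fell (median 0.12), where 40.8% of all genes were called. With each gene's probe sets averaged, 4 rose and 2 fell. Dyrk1a (-0.31) and Mapk9 (0.18) each had another probe set called in the opposite direction. Their averaged probe sets did not pass (limma adjusted p = 0.592 and 0.668). The casein kinase genes Csnk1g1 (0.75 ± 0.12) and Csnk1e (0.34 ± 0.06) and the GSK3 gene Gsk3b (0.34 ± 0.06) rose. The p38 kinase gene Mapk14 fell by 0.50 (SE 0.07). Csnk1d differed by 0.16 ± 0.06 without passing (limma adjusted p = 0.0802) and passed with its probe sets averaged (0.0162), without dim probe sets (0.0411) and with an intensity trend (range 0.00763 to 0.234).

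Of 10 genes of calcineurin anchors, immunophilins and proteins that bind calcineurin or NFAT, 1 rose and 3 fell (median -0.11). Of all genes 40.8% were called. The mitochondrial anchor gene Akap1 fell by 0.47 (SE 0.06) and Fkbp1b, whose product is a relative of the FK506 target FKBP12, by 0.57 (SE 0.06). Nfatc2ip, which encodes a protein that binds an NFAT factor, rose by 0.59 ± 0.07. Ppib, a cyclophilin gene, fell by 0.18 (SE 0.06), a call lost without control replicate 1 (limma adjusted p = 0.0842), 2 (0.0533) or 3 (0.0761) and without starved replicate 1 (0.0969) or 2 (0.0794; range 0.000258 to 0.0969). Fkbp1a, the FKBP12 gene, was at 11.88 in control and 11.90 in starved arrays.

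Of 11 other calcineurin substrates and NFAT relatives, 4 rose and 1 fell (median 0.10), where 40.8% of all genes were called. The factor gene Mef2d rose by 0.49 ± 0.07 and the mitochondrial fission gene Dnm1l by 0.29 ± 0.06. The other probe set of Mef2d was not called, and the mean of both rose by 0.25 (limma adjusted p = 0.0159). The CREB coactivator gene Crtc2 rose by 0.35 ± 0.10, a call lost without starved replicate 1 (limma adjusted p = 0.0589), 2 (0.0685) or 3 (0.0659) and without moderation (0.108; range 0.0137 to 0.108). Nfatc2, another NFAT gene, fell by 0.33 (SE 0.07) in its brightest probe set and did not pass when its probe sets were averaged (-0.10, limma adjusted p = 0.327, range 0.00194 to 0.327). Mef2a differed by 0.15 ± 0.09 without passing, and passed without control replicate 3 (0.24, limma adjusted p = 0.0328, range 0.0328 to 0.484).

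Genes that respond to calcineurin and NFAT outside lymphocytes moved both ways, 3 of 11 higher and 5 lower (median -0.22). Of all genes 40.8% were called, and many of these response genes also answer to other pathways. The cell cycle inhibitor gene Cdkn1a (1.08 ± 0.05) and the cytokine gene Il6 (0.76 ± 0.10) rose. The angiogenic factor gene Vegfa fell by 1.40 (SE 0.13) and the cyclin gene Ccnd1 by 0.97 (SE 0.06). Ptgs2, the inducible cyclooxygenase gene, differed by -0.28 ± 0.11 without passing (limma adjusted p = 0.0738). It passed in the lower direction without starved replicate 1 (-0.39, adjusted p = 0.00871, range 0.00871 to 0.210), without dim probe sets (0.0451) and with an intensity trend (0.0193), and in the higher direction when its 2 probe sets were averaged (0.265, limma adjusted p = 0.0357). Of 12 response genes known from lymphocytes, 9 lay under the dim limit in both groups, 1 rose and 0 fell (median -0.01). The gene that rose was Egr2 (0.41 ± 0.07), whose other probe set was not called (mean of both 0.35, limma adjusted p = 0.0172).

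Of 18 subunit genes of other serine/threonine phosphatases, 7 rose and 2 fell (median 0.11), where 40.8% of all genes were called. With each gene's probe sets averaged, 4 were higher and 3 lower. Ppm1d, a phosphatase gene induced by p53, rose by 1.04 ± 0.09 and Ppp2r5d, a regulatory subunit gene of PP2A, by 0.78 ± 0.05, while another such gene, Ppp2r5a, fell by 0.48 (SE 0.07). Ppm1a rose by 0.66 ± 0.06 in its brightest probe set, but another of its probe sets was called lower and the mean of all differed by 0.06 (limma adjusted p = 0.469, range 6.83e-10 to 0.469). The share of these genes called, 9 of 18, and that of the calcineurin group, 4 of 9, were not tested against each other.

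**Figure D3:**
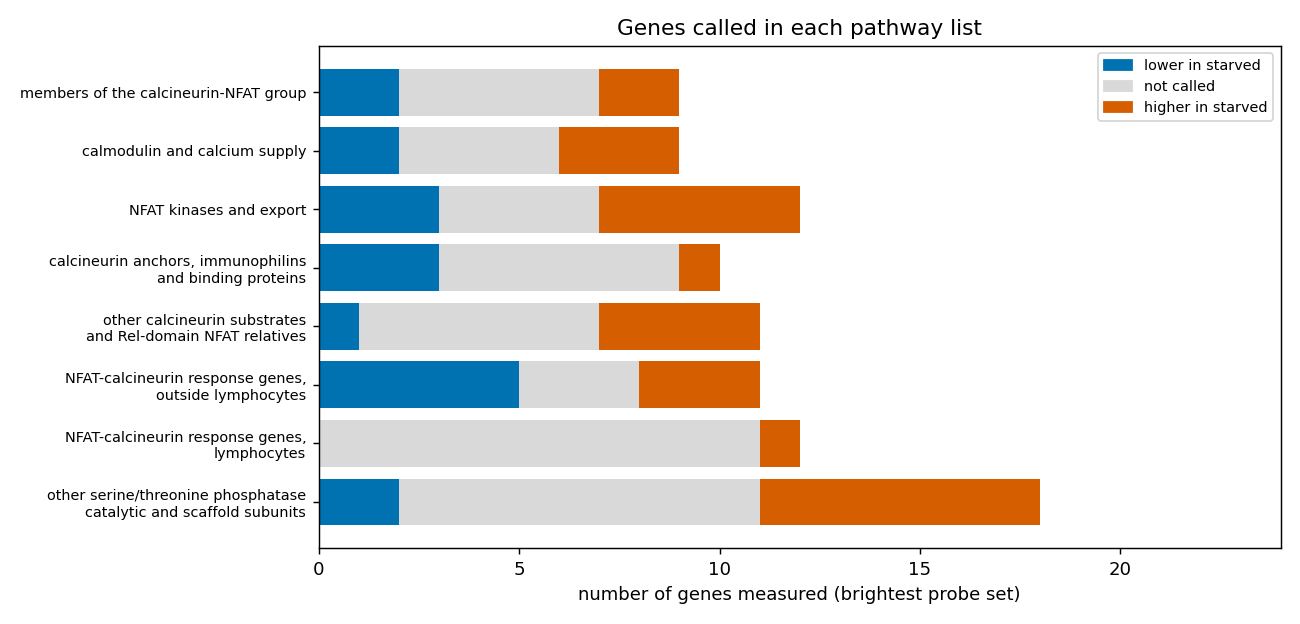
Number of genes called lower (blue), not called (grey) and called higher (orange) in starved cells by limma at an adjusted p under 0.05, for the 9 measured members and for each of the 7 pathway lists, by the brightest probe set of each gene. Members split 2 lower and 2 higher, and 1 of 12 lymphocyte response genes was called.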

How the data were processed

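Biotin-labelled cRNA of 3 starved and 3 control samples was read on Affymetrix arrays. The deposited values are on the log2 scale; per the submitters' processing notes the authors used RMA and the affy package, with no version named. RMA brings the probe values of all arrays to the same distribution before it sums them up by probe set. A shift of most transcripts in the same direction would therefore not be visible. The medians of the deposited values lay between 6.745 and 6.784 on the 6 arrays. Of 22690 probe sets, 64 control probe sets were set aside. The platform annotation gave 1 gene to 20380, several to 691 and none to 1555. Symbols were checked by gene identifier in RefSeq (0 changed, 29 without a match).

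Starved and control arrays were compared in limma 3.58.1 (R 4.3.3) by lmFit and eBayes, two-sided and without covariates. Benjamini-Hochberg adjustment ran over the 22626 probe sets tested. The fit was tested on simulated data with independent errors and few changed probe sets, unlike the measured data. That test does not give the error rate of the calls reported. In counts by gene the brightest probe set stood for the gene. The members and lists were chosen with earlier results of these data known. Named genes were all members and, from each list, up to 4 called genes with the largest change and the brightest gene not called. Dyrk1a and Mapk9 were named besides, since their probe sets were called in opposite directions. Same-numbered samples were not treated as pairs, since their deviations from the group means correlated at -0.094, 0.015 and -0.008. These values do not settle whether the samples were paired, and the titles do not say. Alternatives are given in the closing section. Scan dates and batches were not used here, and starvation cannot be told apart from a batch that matches the groups. Figures used matplotlib 3.10.9 (Python 3.11.15).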

Additional observations from a re-analysis of the deposited data

How the results depend on the processing

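The counts of calls stayed within 1.5 times of those reported (8933 of all probe sets and 10 of the members) under each of these: dim probe sets left out, quantile normalization repeated, arrays centred on their medians, a trended and robust prior, no moderation, and array weights. With the _s_at, _x_at and _a_at probe sets left out, 5716 were called, 6 of them members, with 15605 and 10 left to test. At an adjusted p of 0.01, 3 of 21 member probe sets were called, a lower share than the 27.6% of all probe sets. Leaving out each array gave 7691 to 8394 calls and 5 to 8 members, and kept 4 to 8 of the 10 member calls. With the replicate number as a block, 8168 were called, 8 of them members. The titles do not say whether same-numbered samples are pairs. In that fit the limma adjusted p of Ppp3cb 1433835_at became 0.0685, of Nfatc4 1423379_at 0.0638 and of Ppib 0.0683, and Ptgs2 passed (0.0313). Averaging a gene's probe sets reversed Ppp3cb (0.197), Rcan3 (0.224) and Ptgs2 (0.265). Repeated quantile normalization reversed the uncalled changes of Fkbp1a (-0.003) and of the phosphatase gene Ppp1cc (0.019). Without single arrays the uncalled changes of Ppp3r1 in 1421786_at ran from -0.129 to 0.07, of Nfatc4 in 1454369_a_at from -0.021 to 0.092, of Fkbp1a from -0.029 to 0.059 and of Ppp1cc from -0.017 to 0.008. The cause was not tested. When probe sets were averaged, the phosphatase list went from 7 higher and 2 lower to 4 and 3, the NFAT kinase list from 5 and 3 to 4 and 2, the responses outside lymphocytes from 3 and 5 to 4 and 4 and the substrates from 4 and 1 to 4 and 0. Probe sets under 5 are close to background, so changes there are less certain.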
